A study of Bos taurus with 6 samples.

Results

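The resting, untreated state of primary bovine aortic endothelial cells was described from the 3 arrays of basal cultures, out of 6 arrays in the series. The members were the arrays whose titles name them as basal replicates 1 to 3, called basal 1, basal 2 and basal 3 here. The cells were released from bovine aorta with collagenase, grown in RPMI medium and, in this group, received no added cytokine. Each array stands for a culture of its own, and whether the cultures share an animal is not given in the sources used here, so their spread may be technical or biological. Passage number and confluence are not given in the sources used here. The remaining 3 arrays, of cells given TGF-beta 1 (24 hours, 5 ng/ml), were not used.

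Endothelial cells line blood vessels and are joined by VE-cadherin and PECAM1 at their contacts. They keep blood fluid through thrombomodulin and the protein C receptor, set vessel tone with nitric oxide, prostacyclin and endothelin, and hold leukocyte adhesion proteins low until they are activated. Arterial endothelium lies on a basement membrane that it helps to make, and it is known for high Notch and shear-responsive gene activity. Cells in culture are without blood flow and divide.

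Expression was measured as the log2 level of 24016 probe sets on an Affymetrix bovine array, after 112 control probe sets were set aside. A level is the brightness of a probe set after RMA normalization. Probe sets differ in how strongly they bind their target, so the order of genes is an order of brightness and not of transcript number, and no fold between genes is given. Of the probe sets, 13292 carried 1 gene symbol, 86 several and 10638 none, and the symbols stood for 9155 genes. Each gene was represented by its brightest probe set, as the mean over the 3 arrays with its SD (n = 3), and its percentile is taken among all probe sets. Where 3 values follow a gene, they are the log2 levels on basal 1, basal 2 and basal 3 in that order. Means ran from 3.03 for MAP4K3 to 13.94 for TMSB10. Of the 9155 genes, 923 lay in the top 5% of probe sets (above 10.12 log2), which is 10.1% of genes and is called the brightest band here. The middle band, from the 45th to the 55th percentile (5.65 to 6.20 log2), held 752 genes or 8.21%. The lowest 25% of probe sets (below 4.56 log2) held 1087 genes or 11.9% and is called near background, although RMA values carry no detection call.

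**Figure D1:**
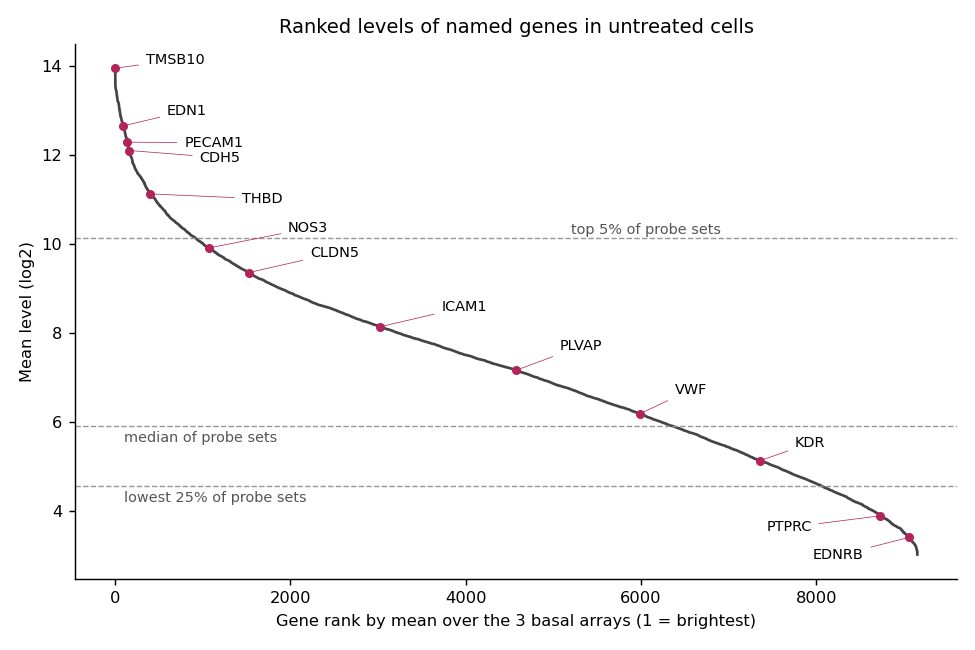
Mean log2 level over the 3 basal arrays (vertical axis) of 9155 named genes against their rank (horizontal axis, 1 is the brightest); dashed lines are the limits of the top 5% of probe sets, their median and their lowest 25%. The labelled points run from TMSB10 at 13.94 through PECAM1 at 12.29, NOS3 at 9.91 and VWF at 6.19 to EDNRB at 3.42.

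The arrays had nearly the same distribution, with medians from 5.88 to 5.90 log2, yet they differed gene by gene. Basal 1 and basal 2 correlated at r = 0.987 across probe sets, basal 2 and basal 3 at 0.966, and basal 1 and basal 3 at 0.942. Probe sets are not independent replicates, so these values describe pairs of arrays and have no test. Basal 3 stands apart, and it was the array farthest from the other two in 74.5% of the 3459 probe sets whose highest and lowest array differed by over 1 log2. Among genes, 1558 (17.0%) had such a span, and the number was 820 without basal 1, 1455 without basal 2 and 224 without basal 3. In 1007 of the 1558 genes (64.6%) basal 1 was the lowest and basal 3 the highest array, and in 299 (19.2%) the reverse held. Basal 3 was the lowest array in 409 of the 1558. The 3′ minus 5′ difference of control probe sets, a sign of RNA integrity, was 0.49, 0.28 and 0.38 log2 for GAPDH on the 3 arrays, 1.70, 1.64 and 1.31 for actin, 1.62, 1.33 and 1.61 for cyclophilin and 3.46, 2.86 and 2.80 for eIF-4E. The 5′ actin control was dim at 5.69, 5.73 and 5.79, below the median probe set at 5.91, so the actin difference is a weak sign. The part of RNA quality in the spread was not tested. With 3 arrays, precision is limited throughout.

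**Figure D2:**
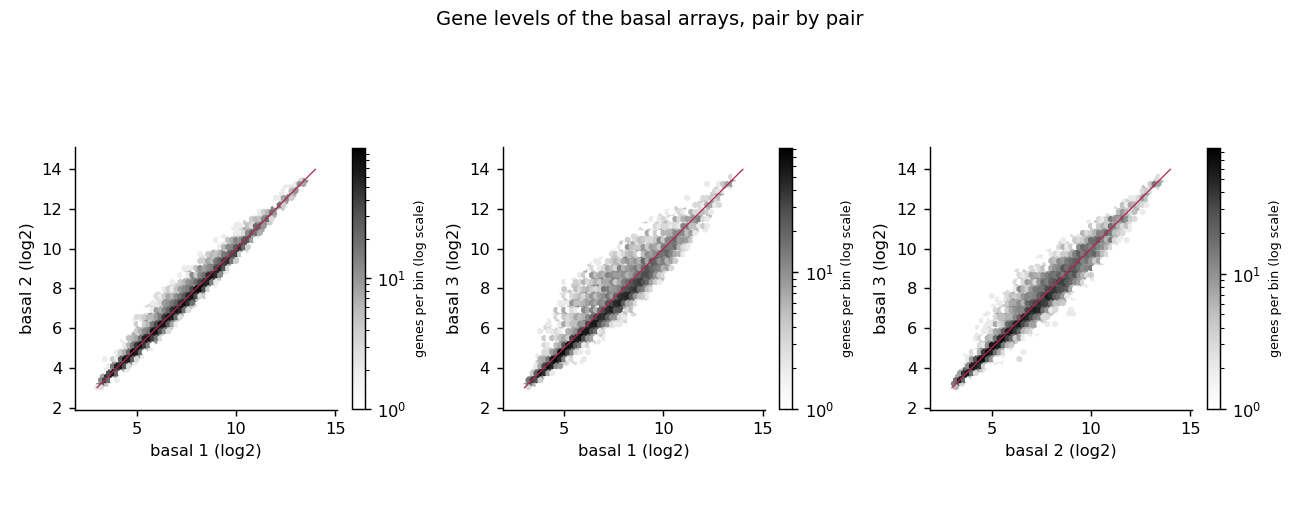
Log2 level of each of 9155 genes on one basal array against another, for the 3 pairs; shading gives the number of genes per bin on a log scale and the line marks equal levels. Basal 1 and basal 2 lie close to the line (225 genes over 1 log2 apart), and genes over 1 log2 apart number 1457 for basal 1 and basal 3 and 820 for basal 2 and basal 3.

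The brightest genes were those of protein synthesis, the cytoskeleton, matrix and iron storage. Of the 25 brightest, 14 encode cytosolic ribosomal proteins, 3 belong to the cytoskeleton list, 3 to the matrix list and 2 to the translation factors, and FTH1, B2M and POMC complete them. TMSB10, a thymosin that binds actin monomers, was first at 13.94, 13.91 and 13.99. VIM, the vimentin of intermediate filaments, followed at 13.71, 13.74 and 13.59 and the elongation factor EEF1A1 at 13.51, 13.55 and 13.61. The 25 lay between 13.27 and 13.94 at the top of the range, where RMA levels are compressed, so small differences between arrays say little there.

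Ribosomal protein genes were the brightest list as a whole. Of 61 measured members 58 lay in the brightest band, against 10.1% of all genes, and the list median was the 99.7th percentile. RPL35 at 13.52, 13.52 and 13.51, RPL13A at 13.50, 13.50 and 13.51 and RPS2 at 13.55, 13.49 and 13.40 led it. A span over 1 log2 was seen in 4 of 61 (6.56%, against 17.0% of all genes), RPS28, RPS3A, RPL7 and RPL5. Each was lowest on basal 1 and highest on basal 3, for example RPS28 at 8.87, 10.07 and 10.45. None of the list had such a span without basal 1, and 1 did without basal 3. Members RPL37 at 3.80, 4.38 and 4.26 and RPS19 at 4.83, 4.90 and 4.65 were near or just above the background limit, although every cell needs these proteins. A low level of a single probe set therefore does not show that a gene is silent.

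Translation factors followed with 23 of 29 in the brightest band (79.3%, against 10.1% of all genes). TPT1, the translationally controlled tumour protein, stood at 13.37, 13.46 and 13.54, EEF1G at 12.93, 12.88 and 12.69 and EEF2, which moves the ribosome along, at 12.87, 12.65 and 12.44. EEF1A2, the elongation factor of muscle and nerve, was the dimmest of the list at 4.98, 4.73 and 4.76. Of the 29, 6 (20.7%, against 17.0% of all genes) spanned more than 1 log2. All 6 were lowest on basal 1 and highest on basal 3, the order of 64.6% of all genes with such a span. The 6 became 2 without basal 1 and 3 without basal 3. Among the 6, EIF3E, a subunit of initiation factor 3, stood at 9.11, 10.42 and 11.42 and EIF4A2, a helicase, at 9.46, 10.60 and 11.57.

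The cytoskeleton list held 22 of 31 members in the brightest band (71.0%, against 10.1% of all genes) and none near background (against 11.9%). The non-muscle actins ACTG1 and ACTB stood at 13.51, 13.48 and 13.32 and at 13.17, 13.17 and 13.04. The dimmest members were TPM2, a tropomyosin of muscle, at 5.85, 5.88 and 6.57 and MYH9, the heavy chain of non-muscle myosin, at 6.67, 7.08 and 5.95. Talin TLN1, which ties integrins to actin, was lower on basal 3 at 10.03, 10.17 and 8.83. Radixin RDX, which links actin to the membrane, was higher there at 9.70, 10.25 and 11.24. Of the calcium-binding annexins and S100 proteins 10 of 18 (55.6%, against 10.1% of all genes) were in the brightest band. S100A11 stood at 12.93, 12.89 and 12.78, ANXA2 at 12.93, 12.94 and 12.65 and S100A4 at 12.83, 12.77 and 12.68. ANXA1, an annexin with an anti-inflammatory role, differed most at 9.99, 11.57 and 12.35, with basal 1 the lowest. The myeloid S100A12 was near background at 4.45, 4.64 and 4.51.

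**Figure D3:**
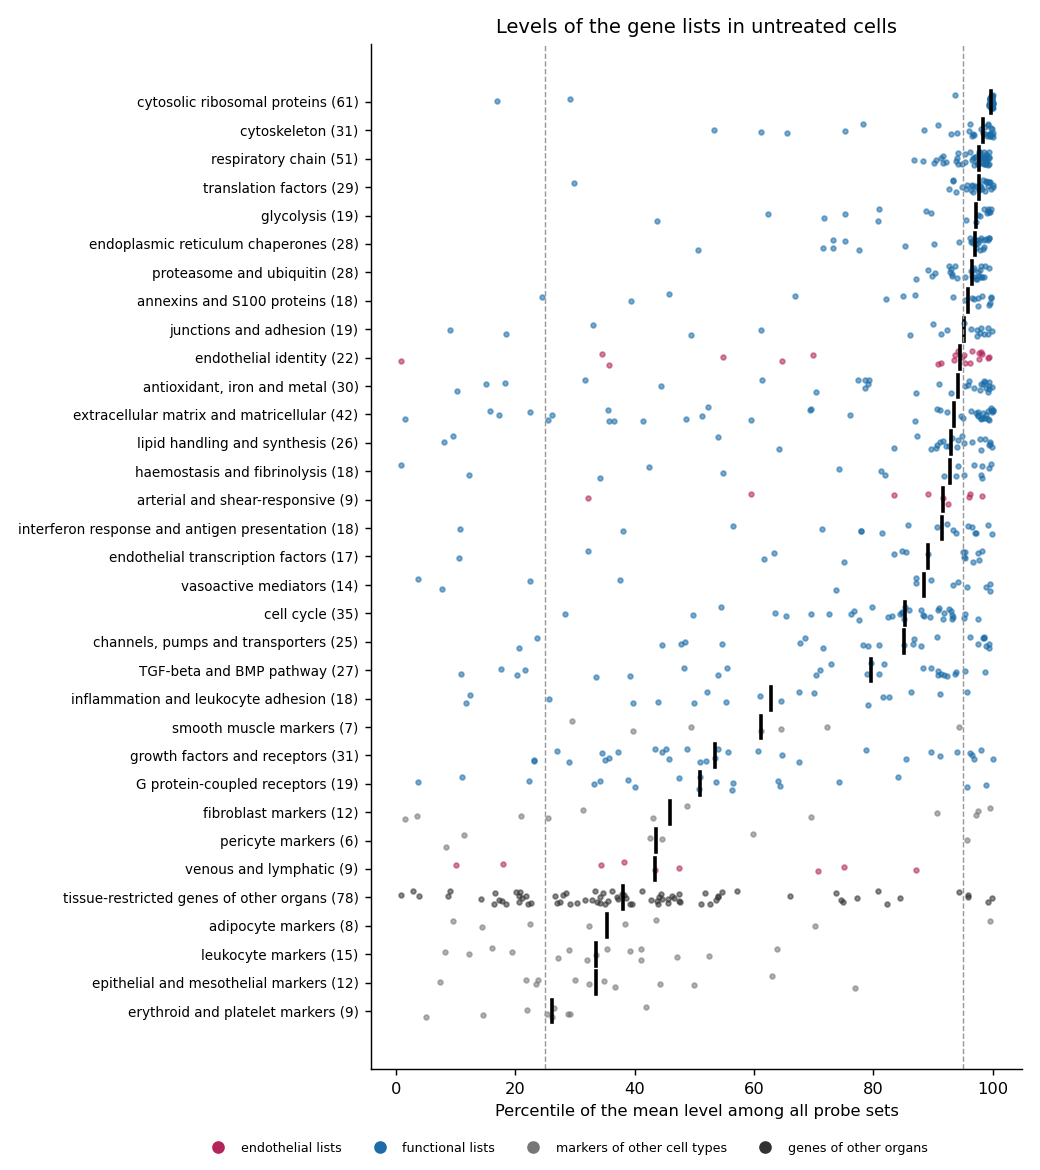
Percentile of each measured gene among all probe sets (horizontal axis, from the mean of the 3 basal arrays) for 33 gene lists (number measured in parentheses); black bars are list medians and dashed lines the 25th and 95th percentiles. List medians run from 99.7 for ribosomal proteins to 26.2 for erythroid and platelet markers, and endothelial identity genes have a median of 94.5.

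Most endothelial identity markers were bright, with clear exceptions. Of 31 listed genes 22 were measured, 10 lay in the brightest band (45.5%, against 10.1% of all genes), 19 lay above the median probe set (86.4%, against 69.5% of all genes) and 1 near background. The list median was the 94.5th percentile, against 69.8 over all genes. The count in the brightest band was 8 without basal 1, 9 without basal 2 and 12 without basal 3. PECAM1, the adhesion protein CD31 of endothelial contacts, was the brightest at 12.43, 12.34 and 12.08. CDH5, which encodes VE-cadherin, stood at 12.34, 12.20 and 11.76 and the ETS factor FLI1 at 11.16, 11.27 and 11.39. THBD, thrombomodulin, stood at 11.04, 11.09 and 11.24, and the angiopoietin receptor TEK at 10.31, 10.38 and 10.56. FLI1, THBD and TEK differed little between arrays, while PECAM1 and CDH5 were lowest on basal 3.

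Several endothelial genes were dim on this array. VWF, the von Willebrand factor that is stored in endothelial granules and often used to identify these cells, lay in the middle band at 6.05, 6.18 and 6.33. The VEGF receptors KDR and FLT1 stood at 4.66, 5.50 and 5.25 and at 5.11, 5.05 and 5.07, at the 35.7th and 34.6th percentile. MMRN1, a multimerin of platelets and endothelium, was near background at 3.19, 3.18 and 3.27. Each of these genes is shown by its brightest probe set, and of the rest the 1 other of VWF lay at 4.75, the 1 of KDR at 3.98 and the 2 of FLT1 at 4.38 and 4.44. Whether these genes are weakly expressed or their probe sets bind weakly cannot be told from the levels.

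In 7 of the 22 genes (31.8%, against 17.0% of all genes) the arrays spanned more than 1 log2. Basal 3 was the lowest array in all 7, against 409 of the 1558 genes of any kind with such a span. The 7 were NOS3, CLDN5, PLVAP, TIE1, SOX18, ENG and ROBO4. NOS3, the endothelial nitric oxide synthase, stood at 10.25, 10.54 and 8.94, and its mean was 9.91 ± 0.86. CLDN5, the claudin of endothelial tight junctions, stood at 9.93, 9.73 and 8.41 and ENG, the TGF-beta co-receptor endoglin, at 9.67, 9.69 and 8.43. TIE1, an orphan receptor of the TIE family, stood at 11.09, 10.88 and 9.71, and SOX18, a transcription factor of vessel development, at 10.70, 10.49 and 9.41. On basal 1 and basal 2 these genes lay close together, and without basal 3 none of the 22 spanned more than 1 log2. Over all genes basal 3 was the lowest array in 4858 of 9155, and over the endothelial identity list in 14 of 22. Summed linear levels of the 15 leukocyte markers were 606, 569 and 539 on basal 1, basal 2 and basal 3, those of the 7 smooth muscle markers 1458, 1361 and 1696 and those of the 12 fibroblast markers 12274, 11394 and 11453. The smooth muscle sum rests mostly on TAGLN, at 9.90, 9.78 and 10.18 log2, and the fibroblast sum mostly on S100A4, at 12.83, 12.77 and 12.68. The part of other cell types in the difference was not tested. In RNA from a whole culture, fewer cells of a type and less RNA per cell cannot be told apart.

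**Figure D4:**
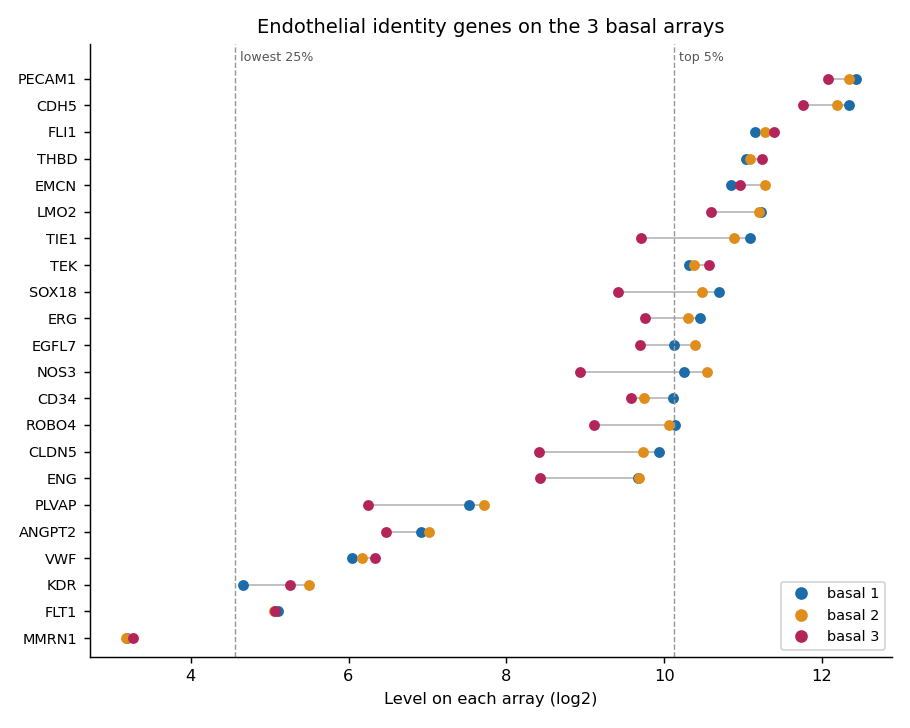
Log2 level (horizontal axis) of the 22 measured endothelial identity genes on basal 1, basal 2 and basal 3, joined by a grey line; dashed lines are the limits of the lowest 25% and the top 5% of probe sets. PECAM1 and CDH5 lie in the brightest band on every array, KDR and FLT1 far below it, and basal 3 is the lowest of the 3 for NOS3, CLDN5 and ENG.

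Arterial and shear-responsive genes and venous and lymphatic genes overlapped in level, and the difference between the lists was not tested. Of 17 listed arterial and shear-responsive genes 9 were measured, and EFNB2, HEY2, GJA4, GJA5, NOTCH1 and JAG2 were among those that were not. Of the 9, 3 (33.3%, against 10.1% of all genes) lay in the brightest band and none near background (against 11.9%). Their median was at the 91.7th percentile, against 69.8 over all genes. Of 11 listed venous and lymphatic genes 9 were measured, without EPHB4 and PROX1. None of the 9 lay in the brightest band (against 10.1% of all genes) and 2 (22.2%, against 11.9%) near background, with a median at the 43.4th percentile. The lists as measured therefore cover only part of each identity. CXCR4, the CXCL12 receptor, stood at 11.39, 11.54 and 10.80, ACKR3, its atypical partner receptor, at 10.84, 10.81 and 9.68 and the VEGF co-receptor NRP1 at 10.28, 10.24 and 10.58. The Notch receptor NOTCH4 and the ligand DLL4 stood at 10.09, 9.79 and 8.86 and 8.70, 8.65 and 7.65, and the shear-induced factor KLF4 at 9.50, 9.59 and 7.94. All 3, like ACKR3, were lowest on basal 3. HEY1, a Notch target, was dim at 5.08, 4.75 and 5.01. On the venous and lymphatic side the scavenger receptor STAB1 led at 9.15, 8.99 and 8.11, and the venous factor NR2F2 stood at 7.87, 7.37 and 7.42. The lymphatic markers PDPN and LYVE1 were near background at 4.30, 4.23 and 4.05 and 3.84, 3.83 and 3.68. KLF2, which responds to flow, was not analysed here.

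Of 17 measured endothelial transcription factors 8 (47.1%, against 10.1% of all genes) lay in the brightest band. The count was 4 without basal 1, 5 without basal 2 and 8 without basal 3. LMO2, a bridging protein of GATA and TAL complexes, stood at 11.23, 11.20 and 10.59. The hypoxia-inducible factors HIF1A and EPAS1 stood at 10.55, 10.82 and 11.58 and 10.90, 10.47 and 10.35. TCF4, an E-protein, varied most at 10.74, 11.20 and 8.75, and ETS1, an ETS factor of angiogenesis, stood at 6.97, 7.13 and 6.03. MEOX2, a homeobox gene of quiescent vessels, was near background at 3.88, 4.32 and 3.23.

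Vasoactive genes ranged from among the brightest to background. EDN1, the precursor of the vasoconstrictor endothelin, was the brightest of 14 at 12.61, 12.61 and 12.74. CAV1, the main caveolar coat protein, stood at 12.17, 12.74 and 12.85, and RAMP2 and CALCRL, which together form an adrenomedullin receptor, at 12.06, 11.99 and 11.27 and 9.56, 10.48 and 10.80. NOS3 is given above. The inducible cyclooxygenase PTGS2 was near background at 4.52, 4.52 and 4.24, while the constitutive form PTGS1 stood at 8.52, 8.32 and 9.42. The clearance receptor NPR3 and the endothelin receptor EDNRB were near background at 3.62, 3.70 and 3.64 and 3.44, 3.42 and 3.40, with the arrays close together. In all 4 of 14 (28.6%, against 10.1% of all genes) lay in the brightest band and 3 (21.4%, against 11.9%) near background.

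Of 18 genes of haemostasis and fibrinolysis 7 (38.9%, against 10.1% of all genes) lay in the brightest band. ANXA2 and S100A10, which together hold plasminogen at the cell surface, were the brightest, S100A10 at 12.53, 12.47 and 12.42. PROS1, the protein S cofactor of activated protein C, stood at 10.65, 11.05 and 12.02 and urokinase PLAU at 11.45, 11.38 and 10.88. Tissue plasminogen activator PLAT was lower on basal 3 at 11.35, 11.30 and 9.44, and the protein C receptor PROCR stood at 10.11, 9.91 and 9.51. TFPI, the tissue factor pathway inhibitor, was lowest on basal 1 at 9.08, 9.98 and 10.65. Tissue factor F3, which starts clotting, was near background at 3.92, 3.93 and 3.84. SERPINE2, a thrombin inhibitor, was highest on basal 3 at 4.81, 4.61 and 7.10.

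Leukocyte adhesion and inflammatory genes were spread over the range, with 12 of 18 (66.7%) above the median probe set, close to the 69.5% of all genes, and a median at the 62.8th percentile. Of the 18, 1 (5.56%, against 10.1% of all genes) lay in the brightest band. It was the adhesion protein MCAM at 10.66, 10.42 and 9.74, which left the band without basal 1. P-selectin SELP, which is stored with VWF, stood at 9.72, 9.70 and 8.59 and ICAM1 at 8.29, 8.31 and 7.83. E-selectin SELE, which appears on activated endothelium, stood at 5.21, 5.34 and 5.56. Interleukin IL6 and the chemokine CXCL2 were near background at 3.92, 3.94 and 3.79 and 3.85, 3.89 and 4.00. Another subset differed sharply between the cultures. CCL2, the monocyte chemokine, stood at 5.03, 5.38 and 10.58, the widest span of all 9155 genes. CXCL8 and CXCL5, which attract neutrophils, stood at 5.04, 6.26 and 8.37 and 4.37, 4.71 and 7.68, and VCAM1, the receptor for leukocyte integrin VLA-4, at 5.54, 5.70 and 7.43. In these 4 basal 3 was the highest array, as in 1137 of the 1558 genes of any kind with a span over 1 log2. SELP was the member with such a span in which basal 3 was the lowest. Of the 18 genes 5 (27.8%, against 17.0% of all genes) spanned more than 1 log2, and 1 did without basal 3. Over the 15 measured leukocyte markers the median level was 5.14, 5.06 and 4.98 on basal 1, basal 2 and basal 3. None of the 15 had a mean above 7.85 log2, the level below which 90% of genes restricted to other organs lay. Over all genes 3475 of 9155 lay above that level. A mean over the 3 arrays does not describe a difference between them. The part of leukocytes in the difference between the cultures was not tested.

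**Figure D5:**
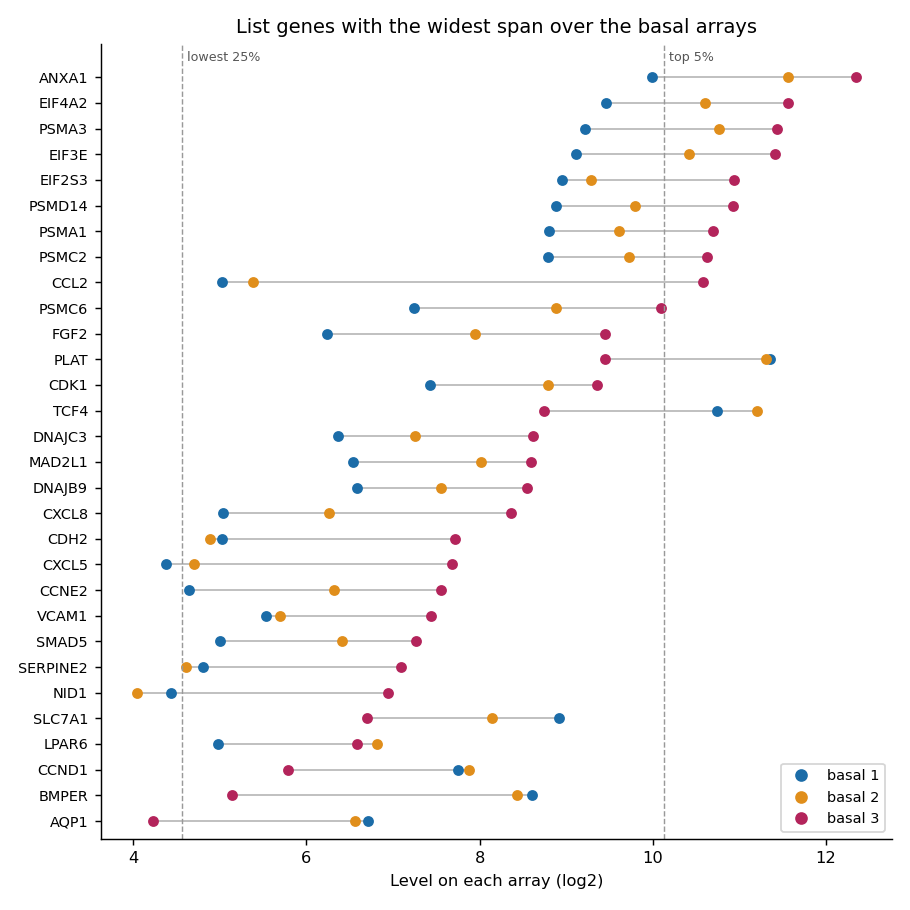
Log2 level (horizontal axis) on basal 1, basal 2 and basal 3 of the 30 list genes with the widest span, ordered by basal 3 and joined by a grey line; dashed lines are the limits of the lowest 25% and the top 5% of probe sets. CCL2 goes from 5.03 on basal 1 to 10.58 on basal 3, while BMPER, PLAT, TCF4 and AQP1 are lowest on basal 3.

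Matrix genes reached the top of the range. Of 42 measured 19 lay in the brightest band (45.2%, against 10.1% of all genes) and 4 near background (9.52%, against 11.9%). IGFBP7, a secreted protein abundant in vessels, stood at 13.59, 13.58 and 13.47, the matricellular factor CCN2 at 13.48, 13.46 and 13.45 and fibronectin FN1 at 13.47, 13.43 and 13.36. The other probe set of FN1 had a mean of 4.79. SPARC, which binds collagen, stood at 12.97, 12.97 and 12.80 and CCN1 at 12.20, 11.94 and 12.19. The arrays lay close together on each of these. Several collagen and laminin genes were bright too, COL4A1 of the basement membrane at 11.75, 11.68 and 11.55 and LAMC1 at 12.28, 12.19 and 11.95. HSPG2, the basement membrane proteoglycan perlecan, was lower on basal 3 at 9.92, 9.99 and 8.72, as was BGN, the proteoglycan biglycan, at 11.15, 11.37 and 10.20. NID1, a laminin linker, was highest on basal 3 at 4.43, 4.04 and 6.94. LOX and MMP14, a collagen cross-linker and a membrane-bound protease, lay in the middle band at 5.89, 6.05 and 6.19 and 5.91, 5.96 and 5.65. The same band held 14 of 78 genes restricted to other organs. LUM, the proteoglycan lumican of stromal cells, was near background at 3.25, 3.31 and 3.26.

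Junction and adhesion genes had 10 of 19 (52.6%, against 10.1% of all genes) in the brightest band. More than 1 log2 was spanned by 8 of 19 (42.1%, against 17.0% of all genes), which became 4 without basal 2 and none without basal 3. The integrin subunits ITGB5 and ITGB1 stood at 13.07, 13.20 and 13.25 and 11.85, 11.99 and 12.38, and F11R, the junctional adhesion molecule A, at 11.49, 11.42 and 11.61. The gap junction protein GJA1 and integrin ITGB3 were highest on basal 3 at 10.35, 10.48 and 11.79 and 10.71, 10.43 and 11.43. N-cadherin CDH2, the cadherin of mesenchymal cells and of endothelial contact with pericytes, was highest there too at 5.02, 4.89 and 7.72. Integrin ITGA5 and plakoglobin JUP were lower there at 10.75, 10.97 and 9.80 and 9.94, 10.05 and 8.58. The probe sets of TJP1, the scaffold ZO-1 of tight junctions, and of CLDN1 were near background at 3.52, 4.12 and 3.53 and 4.20, 4.75 and 3.72.

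Genes of lipid handling gave 9 of 26 (34.6%, against 10.1% of all genes) in the brightest band. The fatty acid carriers FABP5 and FABP4 stood at 13.27, 13.25 and 12.98 and 12.33, 12.91 and 12.58. CAVIN1, which shapes caveolae, stood at 12.66, 12.62 and 11.60. Sterol and fatty acid synthesis genes were bright but uneven: HMGCS1 had a mean of 11.67 ± 0.63 and was lowest on basal 3, FASN stood at 11.56, 11.45 and 10.24, SCD at 11.60, 11.38 and 10.50 and INSIG1 at 10.14, 10.33 and 9.10. A span over 1 log2 was seen in 10 list members (38.5%, against 17.0% of all genes). Basal 3 was the lowest array in all 10, against 409 of the 1558 such genes over all lists and outside them. Without basal 3 none of the 26 had such a span (6 without basal 1). CD36, a fatty acid translocase of capillary endothelium, and lipoprotein lipase LPL were near background at 3.69, 3.56 and 3.76 and 3.69, 3.91 and 3.66.

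All 51 measured respiratory chain subunits lay above the median probe set, as did 69.5% of all genes. In the brightest band lay 38 (74.5%, against 10.1% of all genes). They were led by the ATP synthase subunits ATP5F1A at 12.40, 12.40 and 12.67 and ATP5F1B at 12.55, 12.54 and 12.31. A span over 1 log2 was seen in 9 subunits (17.6%, near the 17.0% of all genes). All 9 were lowest on basal 1 and highest on basal 3, the order of 64.6% of all genes with such a span. Examples are NDUFS4 of complex I at 9.82, 10.94 and 11.52 and UQCRC2 of complex III at 8.54, 9.39 and 10.30. Without basal 1 none and without basal 3 4 of the subunits had such a span. Of 19 glycolysis genes 11 (57.9%, against 10.1% of all genes) lay in the brightest band. GAPDH stood at 12.93, 12.92 and 12.69, enolase ENO1 at 12.87, 12.78 and 12.49 and lactate dehydrogenase LDHA at 11.92, 12.33 and 12.91. The neuronal enolase ENO2 and the muscle phosphofructokinase PFKM were the dimmest at 5.70, 5.56 and 5.45 and 6.81, 6.60 and 6.53.

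Secretory chaperones, proteasome subunits and antioxidant genes lay high as well. Of 28 endoplasmic reticulum genes 19 (67.9%, against 10.1% of all genes) lay in the brightest band. Among them were SSR4 of the translocon at 12.60, 12.55 and 12.56 and the disulfide isomerase P4HB at 12.16, 12.16 and 11.93. The stress-induced co-chaperones DNAJB9 and DNAJC3 were lowest on basal 1 and highest on basal 3, DNAJC3 at 6.37, 7.26 and 8.62. Of 28 proteasome genes 17 (60.7%, against 10.1% of all genes) lay in the brightest band, with PSMA7 at 12.50, 12.45 and 12.36. A span over 1 log2 was seen in 8 (28.6%, against 17.0% of all genes). Of these 7 were lowest on basal 1 and highest on basal 3, such as PSMC6 at 7.24, 8.88 and 10.10. PSMD4 was the reverse at 9.69, 9.48 and 8.41. The 8 became 5 without basal 1 and 2 without basal 3. Of 30 antioxidant and metal genes 15 lay in the brightest band, against 10.1% of all genes. The ferritin chains FTH1 and FTL stood at 13.43, 13.40 and 13.37 and 12.60, 12.68 and 12.38, and peroxiredoxin PRDX1 at 12.44, 12.47 and 12.42. NOX4, the hydrogen peroxide-producing oxidase of vessel walls, had a mean of 7.87 ± 0.51 and was lowest on basal 1, while GCLC of glutathione synthesis was near background at 3.75, 3.81 and 3.80.

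Of 35 cell cycle genes 33 (94.3%, against 69.5% of all genes) lay above the median probe set. In the brightest band lay 3 (8.57%, near the 10.1% of all genes), and none lay near background (against 11.9%). Without basal 1, 1 lay in the brightest band. PCNA, the sliding clamp of DNA replication, stood at 10.06, 11.23 and 11.43 and CDK4 at 10.39, 10.20 and 10.06. The mitotic kinase CDK1 was lowest on basal 1 at 7.42, 8.79 and 9.35, as was the spindle checkpoint gene MAD2L1 at 6.53, 8.02 and 8.59. Cyclin D1, CCND1, was lowest on basal 3 at 7.75, 7.88 and 5.79. CENPA, the histone of centromeres, was the dimmest at 4.91, 4.70 and 4.61. A span over 1 log2 was seen in 10 members (28.6%, against 17.0% of all genes). Of these 6 were lowest on basal 1 and highest on basal 3, the order of 64.6% of all genes with such a span. The 10 became 6 without basal 1 and 5 without basal 3.

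The TGF-beta and BMP pathway, which signals through type I and type II receptor kinases, was unevenly represented. The ligand gene BMP2 was in the brightest band at 10.28, 9.99 and 10.40. Among receptors the type II receptor TGFBR2 was the brightest at 11.62, 11.47 and 11.60, with its other probe set at a mean of 6.83. The type I receptor TGFBR1 was near background at 4.06, 4.52 and 4.34. The endothelial type I receptor ACVRL1 (ALK1) stood at 9.77, 10.08 and 8.74. Among target genes ID3 and ID1, inhibitors of differentiation, stood at 10.19, 10.10 and 9.14 and 9.31, 9.28 and 8.09, both lowest on basal 3. BMPER, a secreted BMP regulator, differed most at 8.60, 8.43 and 5.14, and the ligand TGFB2 stood at 8.80, 8.31 and 7.11. The signal transducer SMAD5 was lowest on basal 1 at 5.00, 6.41 and 7.27. In all 2 of 27 (7.41%, against 10.1% of all genes) lay in the brightest band and 4 (14.8%, against 11.9%) near background, shares near those of all genes. Without basal 3, 1 lay in the brightest band.

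Growth factors and their receptors had a median near that of all probe sets, at percentile 53.5. In the brightest band lay 5 of 31 (16.1%, against 10.1% of all genes). Beside IGFBP7 these included IGFBP4, a binding protein of insulin-like growth factors, at 11.49, 11.60 and 10.59, and VEGFC, the lymphangiogenic ligand, at 10.57, 10.70 and 10.75. VEGFA, APLN, FGFR1, INSR, IGF1R, IGFBP5 and the PDGF receptor PDGFRA lay in the middle band, VEGFA at 6.04, 6.23 and 6.17. That band held 8.21% of all genes and 14 of 78 genes restricted to other organs, so it does not by itself show expression. FGF2, a growth factor that endothelial cells make for themselves, differed between all arrays at 6.24, 7.95 and 9.45. HGF and ANGPT1, made by mesenchymal and mural cells, were near background at 4.59, 4.35 and 4.47 and 4.57, 4.41 and 4.41. Of 19 genes listed for G protein-coupled receptors and their partner proteins, 2 (10.5%, against 10.1% of all genes) were in the brightest band, the receptor CALCRL and its partner RAMP2, and 1 was without basal 3. CXCR4 and ACKR3, of the same receptor class, were counted with the arterial genes, and the sphingosine receptor S1PR1 stood at 8.21, 9.07 and 7.90. The thrombin receptor F2R was lowest on basal 3 at 7.76, 8.13 and 6.57, and the angiotensin receptor AGTR1 was near background at 3.91, 3.83 and 3.78.

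Among channels and carriers 8 of 25 (32.0%, against 10.1% of all genes) lay in the brightest band. Mitochondrial carriers led them, such as SLC25A3 for phosphate at 12.43, 12.38 and 12.35. The arginine carrier SLC7A1 stood at 8.91, 8.14 and 6.70, the potassium channel KCNJ2 at 8.89, 8.86 and 7.79 and the water channel AQP1 at 6.71, 6.56 and 4.23, each lowest on basal 3. Of 18 genes of antigen presentation and interferon response 6 (33.3%, against 10.1% of all genes) lay in the brightest band. B2M, the light chain of MHC class I, stood at 13.34, 13.43 and 13.56, IFITM1 at 12.32, 12.27 and 12.03 and MX1 at 11.20, 10.88 and 10.07. The chemokine CXCL10 was near background at 3.75, 3.84 and 3.87. A span over 1 log2 was seen in 4 members (22.2%, against 17.0% of all genes), MX1, ISG15, IRF9 and OAS1X. All 4 were highest on basal 1 and lowest on basal 3, the order of 19.2% of all genes with such a span. The 4 became 2 without basal 1 and none without basal 3.

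Markers of blood, epithelium and fat had low medians with some higher members, and those of mesenchymal cells were mixed. None of 15 leukocyte, 9 erythroid and platelet or 12 epithelial and mesothelial markers lay in the brightest band, against 10.1% of all genes. The median percentiles were 33.6, 26.2 and 33.6, against 69.8 over all genes. PTPRC, the CD45 antigen of leukocytes, stood at 3.89, 3.87 and 3.93, globin HBB at 5.06, 4.65 and 4.66 and epithelial EPCAM at 3.73, 3.51 and 3.65. Higher members were the monocyte co-receptor CD14 at 6.74, 6.68 and 6.80 and the keratins KRT5 at 8.05, 7.88 and 7.27 and KRT18 at 6.95, 6.73 and 6.40. Of 8 adipocyte markers 1 (12.5%, against 10.1% of all genes) lay in the brightest band, FABP4, which endothelium also expresses. The lipase LIPE stood at 7.60, 7.16 and 6.80. Of 7 smooth muscle markers TAGLN, which binds actin in contractile cells, was the brightest at 9.90, 9.78 and 10.18, ACTA2 stood at 6.95, 7.08 and 7.97 and the myosin MYH11 at 4.73, 4.87 and 4.80. Of 12 fibroblast markers 3 lay in the brightest band, against 10.1% of all genes. They were S100A4 and the collagens COL1A2 at 10.76, 10.65 and 11.33 and COL3A1 at 10.86, 10.74 and 10.74. Near background lay 3, against 11.9% of all genes. These were LUM, DPT and FAP, the last at 3.37, 3.42 and 3.44. The median of the fibroblast list was at percentile 45.98, against 69.8 over all genes.

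Genes restricted to other organs gave a measure of how far a low level stands for background. Of 78 measured genes of milk, liver, lens, retina, testis, muscle, brain, kidney and pituitary, 19 (24.4%, against 11.9% of all genes) lay near background, and their median was 5.27 log2, the 38.1th percentile. The middle band held 14 of the 78, among them MYOD1, MYOG and TTR, and 8.21% of all genes. Of the 78 genes 75% lay below 6.01 and 90% below 7.85. The means of VWF, VCAM1, SELE, KDR and FLT1 lay below 7.85. Above 7.85 lay 16 of the 22 endothelial identity genes, against 3475 of all 9155 genes. CSN3, a casein of milk, stood at 4.29, 4.23 and 4.02, GCG, the glucagon gene, at 3.29, 3.41 and 3.42 and CSN1S1 at 3.18, 3.22 and 3.25. None of the 78 spanned more than 1 log2 over the arrays, against 17.0% of all genes. The 10 dimmest named genes lay between 3.03 and 3.16, MAP4K3 the lowest at 2.98, 3.10 and 3.01.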

How the data were processed

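Biotin-labelled cRNA from each culture was read on an Affymetrix bovine array, per the labels' protocols. The values deposited by the authors are on a log2 scale. The submitters' processing notes name RMA and affy without a version. RMA subtracts background, makes array distributions alike and summarises probes, so levels near background and near saturation are compressed.

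Columns were matched to samples by the labels, with 0 columns left unmatched. Gene symbols came from the array annotation, and 13263 single-symbol probe sets had a gene identifier found in RefSeq's table for ARS-UCD2.0, which served for names only. Means, SDs, percentiles and spans were computed with pandas 2.3.3 and numpy 2.4.6 and drawn with matplotlib 3.10.9 in Python 3.11.15. No test was run, since 1 group is described. The calculations were tested on simulated data.

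The members and the 33 gene lists were chosen with earlier results of these data known. The naming rule took the 25 brightest genes, the 4 highest and 2 lowest members of each list, members in the middle band or with a span over 1 log2, the 12 widest and 10 dimmest genes and a fixed set, 359 in all. APOA1, BFSP1, CDK5R1, CLU, COL4A1, DPT, DSTN, GNAS, LAMC1, PTGS2, PTMA and RACK1 fall outside it and were chosen after their values were seen. Alternatives are listed with the limits below. KLF2 and TMSB4X of the fixed set, and sequences, were not analysed here.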

Additional observations from a re-analysis of the deposited data

How the results depend on the processing

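Counts by band follow the limits chosen. With narrow bands (top 1%, lowest 10%, 40th to 60th percentile, span over 0.5 log2) 189 genes were brightest, 1526 in the middle and 322 near background, 3880 exceeded the span, and 2 endothelial identity and 5 genes of other organs lay in their bands. With wide bands (top 10%, lowest 50%, span over 2 log2) these numbers were 1730 brightest, 2793 near background, 315 over the span, 16 and 57. Ranks over single-symbol probe sets gave 1734 genes near background, 33 of other organs there and 6 endothelial identity genes in the brightest band. With the lowest probe set of a gene 1785 genes and 30 of other organs were near background. Leaving out 1 array gave 916 to 928 brightest genes, 756 to 778 in the middle, 1084 to 1090 near background, 224 to 1455 over the span, 8 to 12 endothelial identity genes and 19 genes of other organs in each case. Centring, a further quantile normalization and medians over arrays kept every count within 1.5 times. Of 359 named levels 82 moved by over 1 SD with the median of a gene's probe sets and 100 with the lowest. No paired analysis was possible because only 1 group is described and no test was made. List counts without each array and with other probe sets were added after seeing the data.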

Other observations

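Of the 100 brightest genes 16 stood in no list. They included CLU, the secreted chaperone clusterin, at 12.90, 12.97 and 12.81, prothymosin PTMA at 12.70, 12.77 and 12.80, the actin-severing protein DSTN at 12.61, 12.65 and 12.99, the stimulatory G protein subunit GNAS at 12.71, 12.84 and 12.67 and the ribosome-bound scaffold RACK1 at 13.23, 13.26 and 13.17. CDK5R1, an activator of a neuronal kinase, stood at 13.27, 13.29 and 13.22, and its other probe sets lay from 6.83 to 13.03.

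Of the genes of other organs 8 lay above 7.85 log2, each shown by its brightest probe set. POMC, the precursor of pituitary hormones, stood at 13.34, 13.29 and 13.32 with its 1 other probe set at 6.57. PRL, prolactin, stood at 12.40, 12.52 and 11.89 with 5 others from 3.76 to 6.84, and ALB, albumin, at 10.52, 10.26 and 10.30 with 8 others from 3.99 to 9.04. CSN2, a casein, stood at 10.50, 10.31 and 10.22 with 2 others at 5.14 and 6.85. With the median of a gene's probe sets none of the 78 genes lay in the brightest band, against 4 with the brightest. APOA1 and BFSP1 had no other probe set. Over all 2913 genes with several probe sets, the brightest and the dimmest differed by a median of 1.45 log2, and by over 2 log2 in 1035. Of the 281 such genes in the brightest band 50 also had a probe set in the lowest 25%. Genes named above as bright were among those with a dim other probe set, GJA1 at 4.20, PROS1 at 4.60, IFITM1 at 4.88 and ATP5F1A at 4.48. The others of ITGB3 lay from 4.84 to 5.55 and those of ITGA5 from 3.47 to 6.51. In further genes the other probe set was bright as well, PECAM1 at 11.86 and CDH5 at 10.63.

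Outside the lists the widest spans included SRRM2, a splicing factor, at 9.25, 8.18 and 4.70, and CREB3L2, a transcription factor of the secretory pathway, at 11.29, 10.54 and 7.12. ECM1, an extracellular matrix protein, stood at 9.64, 9.78 and 6.18 and BEX3 at 9.49, 9.82 and 6.36, both lowest on basal 3. ERGIC2 and FKBP14, proteins of the secretory pathway, were highest there at 6.47, 7.58 and 10.17 and 6.67, 7.92 and 10.21.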
